A study of Mus musculus with 30 samples.

Results

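AP-1 is a family of transcription factors that bind DNA as dimers of a Jun protein (cJun and JunB among them) with a Fos protein (such as FOSL2), with an ATF protein, or with another Jun. Jun proteins can pair with each other, whereas Fos proteins do not form stable dimers among themselves and need a partner such as a Jun. AP-1 responds rapidly to growth factors, serum and stress, and its subunits are induced in the first hours after fibroblasts receive an adipogenic stimulus. The intervals described here were listed for at least 2 of the 3 profiled AP-1 subunits, cJun, FOSL2 and JunB, and for none of the 6 other profiled factors. They numbered 814 of 34724 intervals, or 2.34%. Below they are called AP-1 only intervals, a name that leaves out intervals with a single AP-1 subunit alone.

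The source was 3T3-L1, a mouse fibroblast line used as a model of pre-adipocytes. Cells past confluence had received dexamethasone at 1 μM, isobutylmethylxanthine at 0.5 mM, insulin at 1 μg per ml and fetal calf serum at 10%, and were collected after 4 h. All 9 libraries came from cells treated in this way, each a chromatin immunoprecipitation with sequencing (ChIP-seq) against a different factor. Besides the AP-1 subunits these were ATF2 and ATF7 (bZIP proteins, like AP-1), KLF4 and KLF5 (zinc-finger proteins of the Krüppel-like family), the vitamin D receptor VDR and its partner RXR. Each factor had 1 library, so no value has a replicate error and no test over samples could be made.

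Each library was deposited as a list of 400 bp intervals in the mouse build mm9, without score or read number. The lists drew on 1 common set of intervals, so that sharing means listing of the same interval. On chromosomes 1 to 19 and X, JunB was listed at 10082 intervals, FOSL2 at 6284 and cJun at 6175. The depth of the libraries is unknown, and a factor that is not listed may lie below an unknown threshold. Genes at these positions were not analysed here, and the sequences under the intervals were not used here.

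The 4 possible subunit combinations were unequal in number. All 3 subunits were listed at 107 intervals (13.1% of the 814, 95% exact interval 10.9 to 15.7). FOSL2 with JunB but without cJun made up 251 (30.8%, 27.7 to 34.1). cJun with FOSL2 but without JunB made up 21 (2.58%, 1.60 to 3.92). cJun with JunB but without FOSL2 made up 435 (53.4%, 49.9 to 56.9). JunB was thus in 793 of the 814, and the only intervals without it were the 21 of cJun with FOSL2. These numbers follow from the way the intervals were chosen and are given as a description. Exact intervals are Clopper-Pearson intervals and cover counting error only.

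Intervals with a single AP-1 subunit and no other factor were more numerous, 3047 in all. JunB alone was listed at 1398, FOSL2 alone at 1282 and cJun alone at 367. Of the 2191 JunB intervals without any factor outside AP-1, 24.7% also held cJun (22.9 to 26.6) and 358 (16.3%) held FOSL2. Of the 930 such cJun intervals, 58.3% held JunB (55.0 to 61.5) and 13.8% held FOSL2 (11.6 to 16.1). Of the 1661 such FOSL2 intervals, 21.6% held JunB (19.6 to 23.6) and 7.71% held cJun (6.47 to 9.10). Without other factors, cJun was mostly listed together with JunB, while FOSL2 was mostly listed by itself. Over the whole series, the 6175 cJun intervals included 1938 with all 3 subunits and 3007 with JunB but without FOSL2. The 6284 FOSL2 intervals included the same 1938 and 1339 with JunB but without cJun. For both subunits, sharing with JunB was thus more frequent over the whole series than without other factors.

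The share of each combination that stood without other factors restates the lists the rule used and is given as a description. Across the series, 6372 intervals held 2 or 3 AP-1 subunits, and 12.8% of these held none of the other 6 factors. For all 3 subunits the share was 5.52% of 1938 intervals (4.55 to 6.63). For FOSL2 with JunB it was 18.7% of 1339 (16.7 to 20.9). For cJun with FOSL2 it was 23.9% of 88 (15.4 to 34.1). For cJun with JunB it was 14.5% of 3007 (13.2 to 15.8).

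The mix of combinations shifted with the number of other factors at the interval. All 3 subunits made up 13.1% of the intervals with 0 other factors, 20.0% of the 851 with 1, 25.4% of the 899 with 2, 25.1% of the 990 with 3 and 24.6% of the 1338 with 4. The share then stood at 48.6% of the 725 with 5 and 66.8% of the 755 with all 6. The share of cJun with JunB was 53.4% with 0 other factors and 60.8% with 4, and only 28.0% with 5 and 13.8% with 6. FOSL2 with JunB had its highest share, 30.8%, where no other factor was listed, and its lowest, 13.9%, with 4 other factors. cJun with FOSL2 stayed at 2.58% or less throughout.

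**Figure D1:**
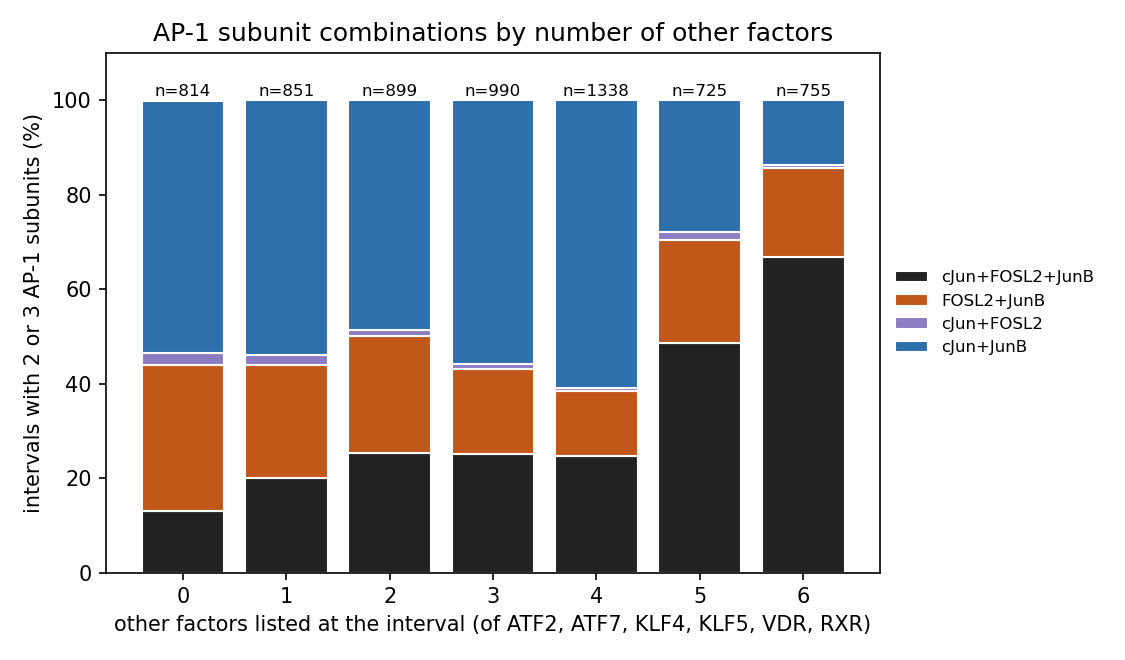
Share of each AP-1 subunit combination (vertical axis, percent) among intervals with 2 or 3 subunits, by the number of other factors listed there (horizontal axis, 0 to 6). The number of intervals stands above each bar. The 814 intervals described here form the bar at 0, where cJun+JunB made up 53.4% and all 3 subunits 13.1%.

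Intervals just outside the rule, with 2 or 3 AP-1 subunits and exactly 1 other factor, numbered 851. Which factor that was depended on the combination. Beside all 3 subunits it was ATF2 or ATF7 at 85 of 170 (95% exact interval 42.2% to 57.8%), KLF4 or KLF5 at 27.6% and VDR or RXR at 22.4%. Beside FOSL2 with JunB it was ATF2 or ATF7 at 118 of 203 (58.1%, 51.0 to 65.0), KLF4 or KLF5 at 24.6% and VDR or RXR at 17.2%. Beside cJun with FOSL2 it was ATF2 or ATF7 at 12 of 18 (66.7%, 41.0 to 86.7). Beside cJun with JunB it was ATF2 or ATF7 at only 57 of 460 (12.4%, 9.52 to 15.8), KLF4 or KLF5 at 33.3% and VDR or RXR at 54.3% (49.7 to 59.0). Over all 851 it was ATF2 or ATF7 at 32.0%, KLF4 or KLF5 at 29.8% and VDR or RXR at 38.2%. At these intervals, the combinations with FOSL2 most often shared the interval with an ATF factor. The combination without FOSL2 most often shared it with a nuclear receptor. These shares come from the lists that the rule used, and the lists differ in length, so they are given without a test.

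The number of intervals in each combination followed from which lists had to be empty. With ATF2 allowed, there were 175 intervals with all 3 subunits, 343 with FOSL2 and JunB, 30 with cJun and FOSL2 and 471 with cJun and JunB. With VDR allowed, the same combinations numbered 128, 266, 22 and 566.

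The deposited order of the intervals was a measure that the rule did not use. In 36 of 36 pairs of lists the shared intervals stood in the same order, which was not that of genomic position. No source used here states what the order stands for. It went with the number of factors: in the JunB list, the first 10% of places held a mean of 6.86 of the 9 factors per interval and the last 10% held 1.74. The place of an interval is given below as a percentage of the list, from the first to the last. Because all lists share 1 order, a place is a property of the interval, not of 1 factor. Because the order went with the number of factors, which the rule limits to 3, the places are given as a description.

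By this order the AP-1 only intervals lay late. In the JunB list, their median place was 73.1% (95% exact interval from order statistics 70.6 to 75.5, n = 793), against 36.1% for intervals with 2 or 3 subunits and other factors (35.0 to 37.2, n = 5491). Intervals with JunB alone lay later still, with a median of 85.5% (83.5 to 86.5, n = 1398). Of the 793, only 39 were in the first 20% of the list and 312 in the last 20%. With JunB and 1 factor outside AP-1 the medians were 71.3% with RXR, 73.5% with VDR, 76.1% with KLF5, 80.8% with ATF7, 81.3% with KLF4 and 82.5% with ATF2. The medians of the 2 AP-1 pairs with JunB, given next, fell within that range.

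Among the combinations, intervals with all 3 subunits came first. They hold 3 factors and the pairs 2, and the order went with the number of factors. Their places were not set beside those of other intervals with 3 factors. Their median place in the JunB list was 63.3% (55.6 to 69.7, n = 107). FOSL2 with JunB had 73.2% (69.2 to 77.4, n = 251) and cJun with JunB 76.3% (72.7 to 79.3, n = 435). The 95% intervals of these last 2 medians overlap. In the FOSL2 list the medians were 64.3% for all 3 (57.8 to 71.9), 74.8% for FOSL2 with JunB (69.3 to 78.2) and 89.0% for cJun with FOSL2 (67.0 to 91.8, n = 21). In the cJun list they were 70.6% for all 3 (63.3 to 76.5), 91.9% for cJun with FOSL2 (73.6 to 94.4) and 81.8% for cJun with JunB (79.0 to 84.5). The rare combination of cJun with FOSL2 had 0 intervals in the first 20% of either list.

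**Figure D2:**
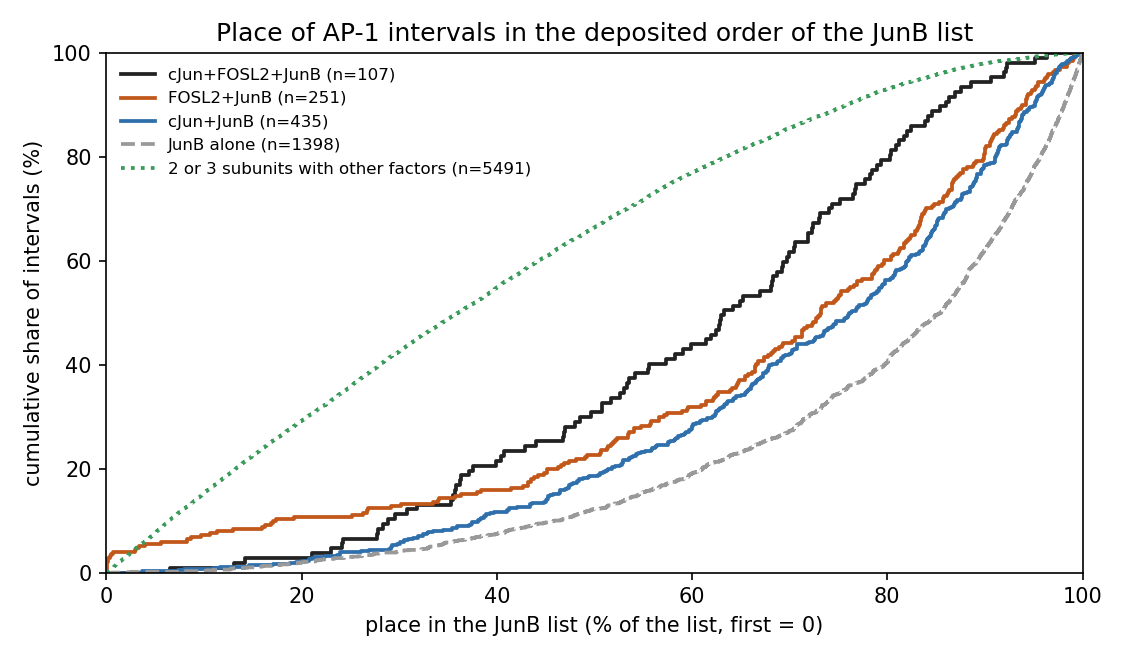
Cumulative share of intervals (vertical axis, percent) by place in the deposited order of the JunB list (horizontal axis, percent of the list). Solid lines are the AP-1 only combinations that hold JunB, the dashed line JunB alone and the dotted line 2 or 3 subunits with other factors. The FOSL2+JunB line rises at once at the left edge and ends near that of cJun+JunB, with medians of 73.2% and 76.3%.

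The AP-1 only intervals at the very start of the lists were FOSL2 with JunB, and nearly all lay in a few clusters whose origin was not tested. Of the first 100 places in the JunB list, 89 were hotspots, here intervals with 5 or more of the 9 factors, and 10 were AP-1 only intervals. All 10 were FOSL2 with JunB, and 9 of them lay in 2 short stretches of the genome. The remaining 1, at place 35, was on chromosome 14 from 51427064 to 51427463, with its nearest other interval 0.303 kb away. The first 100 places of the FOSL2 list held the same number, again 10 FOSL2 with JunB intervals with 9 in those stretches, beside 68 hotspots. The first 100 places of the cJun list held 99 hotspots and 0 AP-1 only intervals. The earliest cJun with JunB interval stood at place 369 of the JunB list, on chromosome 6 from 5503883 to 5504282. The earliest with all 3 subunits stood at place 653, on chromosome 13 from 45719229 to 45719628. These 3 intervals outside the stretches were chosen after their values were seen.

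These stretches belonged to runs, in which 3 or more AP-1 only intervals followed each other within 10 kb. There were 4 such runs with 20 intervals, and all 20 were FOSL2 with JunB. Whether the runs lie on exons of abundant transcripts, whose RNA or cDNA could be carried over into the FOSL2 and JunB libraries, was not tested, so they are described as listed intervals and not as binding. The longest lay on chromosome 19 from 44468919 to 44482205 and held 9 intervals in 13287 bp, with no other listed interval among them. Their midpoints were 308 to 8899 bp apart, with a median step of 586 bp. In the JunB list they held the places 1, 2, 4, 5, 6, 14, 19, 394 and 2704. In the FOSL2 list the same intervals held places 2 to 1766. The interval in first place ran from 44471176 to 44471575.

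The second run lay on chromosome 3 from 10204310 to 10208655, with 4 intervals at the JunB places 44, 71, 297 and 336. It enclosed 1 interval of another kind, listed for KLF5, VDR and RXR. The third lay on chromosome 19 from 5796022 to 5799302, with 4 intervals at places 4854 to 7379. The one on chromosome 1 reached from 45402664 to 45405931, with 3 intervals at places 1074, 3603 and 8030. The last 2 runs also enclosed 1 and 2 intervals with JunB alone. None of the 4 runs held an interval listed for cJun.

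**Figure D3:**
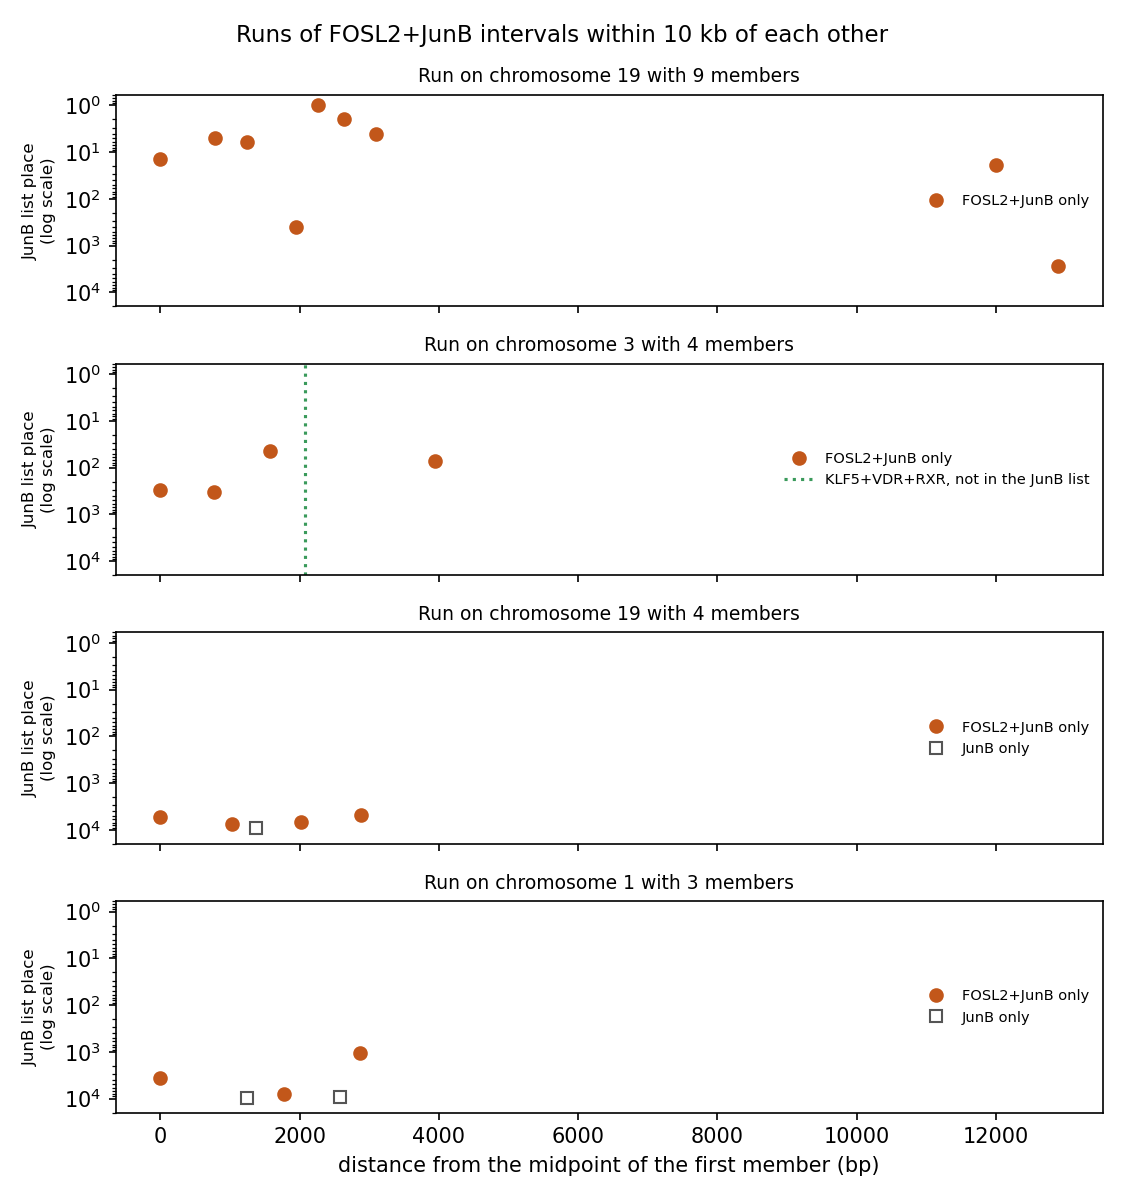
The 4 runs of FOSL2+JunB intervals, each as place in the JunB list (vertical axis, log scale, first place at the top) against distance from the midpoint of the run's first interval (horizontal axis, bp). Filled circles are FOSL2+JunB intervals, open squares JunB alone, and the dotted line an interval of KLF5, VDR and RXR. The 9-member run on chromosome 19 holds the places 1, 2, 4, 5 and 6, and the 4-member run on that chromosome lies at 4854 to 7379.

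Outside the runs, 231 FOSL2 with JunB intervals remained. Their median place in the JunB list was 75.3% (71.8 to 79.7), and 14 of them were in the first 20% of the list, against 27 of 251 with the runs. For cJun with JunB, 9 of 435 were in the first 20%. Results for FOSL2 with JunB are therefore given with and without the runs. The runs were defined by AP-1 only intervals lying within 10 kb of each other. All 20 intervals in them were FOSL2 with JunB, so each had a FOSL2 and a JunB neighbour by that definition. Setting the runs aside took crowded intervals from this combination only, and was chosen after the data were seen. Differences outside the runs depend on that choice and are given as a description.

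The surroundings of an interval were not used by the rule, which looked only at the interval itself. AP-1 only intervals had another site nearby less often than the rest of the series, and by a smaller margin less often than intervals with a single AP-1 subunit alone. Another listed interval lay within 10 kb of 389 of 814 (47.8%, 95% exact interval 44.3 to 51.3), against 60.9% of the 33910 other intervals. The difference was -13.1 percentage points (95% Newcombe interval -16.6 to -9.67), and it was -14.5 points outside the runs (-17.9 to -10.9). The median distance to the nearest other interval was 11.2 kb (9.62 to 12.5) for AP-1 only intervals and 5.90 kb (5.73 to 6.05) for the rest. Against intervals with a single subunit alone, of which 54.2% had another interval within 10 kb, the difference was -6.36 points (-10.2 to -2.50), and their median distance was 8.23 kb (7.58 to 8.99). All Newcombe intervals cover counting error only, treat intervals as independent and are not adjusted for the number of comparisons, which was 132.

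Hotspots were near fewer of them as well. A hotspot lay within 10 kb of 102 of 814 AP-1 only intervals (12.5%, 10.3 to 15.0), against 19.9% of all other intervals. Against intervals with 2 or 3 AP-1 subunits plus other factors, where the share was 24.8%, the difference was -12.2 points (-14.6 to -9.53). Against intervals with a single AP-1 subunit alone, where it was 12.2%, the difference was 0.289 points (-2.14 to 2.98). Since places in the order also differed, the shares with a hotspot nearby were set side by side within 5 equal parts of the JunB list. From the first part to the last, they were 28.2%, 13.3%, 14.1%, 10.3% and 11.5% for AP-1 only intervals, against 32.4%, 22.6%, 22.5%, 19.7% and 17.7% for intervals with 2 or 3 subunits and other factors. The difference was negative in 5 of 5 parts, and its interval excluded 0 in the last 3. The first part held only 39 AP-1 only intervals, 11 of them with a hotspot nearby, and 26 of the 39 lay outside the runs. In the longest run, 7 of 9 intervals had a hotspot within 10 kb. The shares by part were not computed outside the runs.

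With the runs, the shares with a hotspot nearby were close among the combinations. They were 13.1% for all 3 (7.34 to 21.0), 12.4% for FOSL2 with JunB (8.55 to 17.1), 9.52% for cJun with FOSL2 (1.17 to 30.4) and 12.6% for cJun with JunB (9.67 to 16.1). FOSL2 with JunB minus cJun with JunB gave -0.293 points (-5.22 to 5.13). Differences of up to about 5 points either way were thus not detectable at these numbers. Of the 31 FOSL2 with JunB intervals near a hotspot, 9 were in runs. Outside the runs the share was 9.52% (6.07 to 14.1), and the difference -3.12 points (-7.79 to 2.16). The distance to the nearest hotspot had a median of 90.8 kb for all 3 (55.4 to 144), 71.5 kb for FOSL2 with JunB (59.1 to 100), 79.8 kb for cJun with FOSL2 (41.6 to 124) and 72.6 kb for cJun with JunB (61.9 to 93.7). For FOSL2 with JunB outside the runs it was 84.6 kb (62.0 to 109).

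Each of the 9 factors was listed near fewer AP-1 only intervals than near other intervals. The share with the factor listed within 10 kb was 18.8% against 31.6% for ATF2 and 14.6% against 23.0% for ATF7, where the first value is for AP-1 only intervals and the second for the 33910 other intervals. It was 15.0% against 19.0% for cJun, 14.0% against 20.9% for FOSL2 and 22.7% against 27.8% for JunB. It was 12.2% against 20.2% for KLF4, 29.9% against 42.1% for KLF5, 23.2% against 31.5% for VDR and 24.1% against 32.7% for RXR. All 9 differences had intervals below 0, the smallest for cJun (-3.97 points, -6.29 to -1.32) and the largest for ATF2 (-12.8, -15.4 to -9.90). Against intervals with a single AP-1 subunit alone, only ATF2 (-6.84, -9.82 to -3.63), ATF7 (-4.58, -7.26 to -1.65) and FOSL2 (-8.61, -11.3 to -5.67) had intervals below 0, and no factor had one above 0.

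What was listed at the neighbouring intervals did differ. An interval with FOSL2 lay within 10 kb of 22.7% of the FOSL2 with JunB intervals (17.7 to 28.4) and 8.97% of the cJun with JunB intervals (6.45 to 12.1). The difference was 13.7 points (8.10 to 19.8), and 7.05 points outside the runs (1.88 to 12.8). An interval with ATF2 lay within 10 kb of 25.9% of FOSL2 with JunB intervals (20.6 to 31.8) and 14.0% of cJun with JunB intervals (10.9 to 17.6). That difference was 11.9 points (5.70 to 18.3), and 8.49 outside the runs (2.41 to 15.0). For ATF7 the shares were 19.1% and 11.3%, a difference of 7.86 points (2.36 to 13.8), and 5.62 outside the runs (0.204 to 11.6). FOSL2 and both ATF factors were thus more frequent near FOSL2 with JunB intervals than near cJun with JunB intervals. The FOSL2 with JunB intervals themselves were not listed for ATF2 or ATF7. Intervals with a single AP-1 subunit alone had shares of 22.6% for FOSL2, 25.6% for ATF2 and 19.2% for ATF7. All intervals other than the AP-1 only ones had 20.9%, 31.6% and 23.0%. With the runs, FOSL2 with JunB was thus close to single subunits, and cJun with JunB was lower. Outside the runs, the FOSL2 with JunB shares were 16.0% for FOSL2, 22.5% for ATF2 and 16.9% for ATF7. Each lay between those of cJun with JunB and of single subunits. Of the 3047 single-subunit intervals, 1282 were FOSL2 alone. With neighbours counted only up to 5 kb away, the ATF2 difference was 4.58 points (-0.209 to 9.91) and the ATF7 difference 3.52 (-0.610 to 8.27).

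For the Krüppel-like factors and the nuclear receptors the picture depended on the runs. With the runs, the differences between FOSL2 with JunB and cJun with JunB were -0.232 points for KLF4, -2.00 for KLF5, -2.92 for VDR and -2.12 for RXR, and each interval included 0. Outside the runs, VDR lay near 16.5% of FOSL2 with JunB intervals and 24.8% of cJun with JunB intervals, a difference of -8.38 points (-14.4 to -1.82). RXR lay near 17.3% and 24.8%, a difference of -7.51 points (-13.6 to -0.890). KLF5 (-6.94, -13.6 to 0.199) and KLF4 (-4.82, -9.18 to 0.118) had intervals that reached just past 0. Of the 20 intervals in runs, 13 had KLF4 listed nearby and 17 each had KLF5, VDR and RXR, and intervals of 1 run can have neighbours in common.

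Intervals with all 3 subunits lay between the other combinations for some factors and above both for others. ATF2 was listed near 21.5% of them (14.1 to 30.5) and FOSL2 near 15.0% (8.80 to 23.1). cJun was listed near 20.6% (13.4 to 29.5), JunB near 27.1% (19.0 to 36.6) and KLF5 near 35.5% (26.5 to 45.4). Against cJun with JunB, none of the 9 differences had an interval that excluded 0. Against FOSL2 with JunB outside the runs, the differences were 9.74 points for cJun (1.68 to 19.0), 9.79 for JunB (0.527 to 19.9) and 12.6 for KLF5 (2.32 to 23.2). With the runs included, no interval of these 3 excluded 0. Of the 21 intervals with cJun and FOSL2, 5 had any neighbour within 10 kb, too few to compare.

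**Figure D4:**
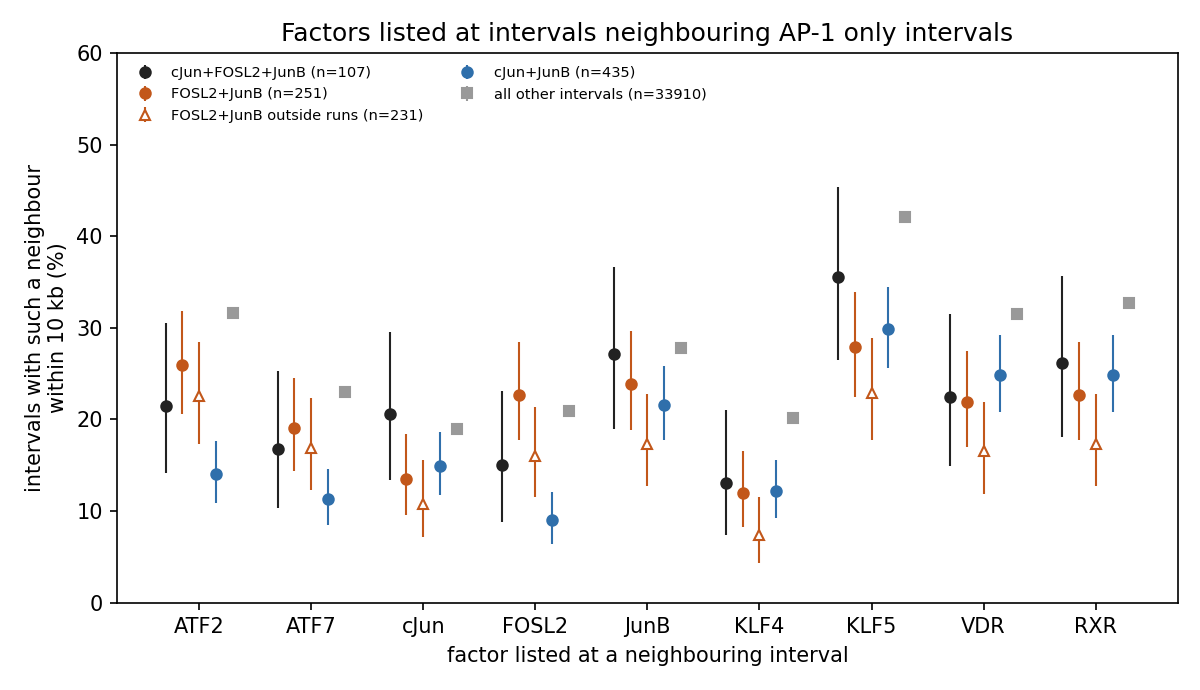
Share of intervals with a neighbouring interval within 10 kb that was listed for each factor (vertical axis, percent; factors on the horizontal axis). Circles are AP-1 only combinations, open triangles FOSL2+JunB outside the runs, grey squares all other intervals, and bars exact 95% intervals. FOSL2 stood near 22.7% of FOSL2+JunB and 8.97% of cJun+JunB intervals, and ATF2 near 25.9% and 14.0%.

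AP-1 only intervals lay near each other mainly through the runs. Another AP-1 only interval was within 10 kb of 36 of the 814 (4.42%, 3.12 to 6.07), against 2.01% of all other intervals. For intervals with a single AP-1 subunit alone it was 2.95%, and the difference was 1.47 points (0.0882 to 3.20). Outside the runs that difference was -0.939 points (-1.96 to 0.409), and the share of AP-1 only intervals was 2.02% (1.16 to 3.25). By combination it was 1.87% for all 3 (2 of 107), 11.6% for FOSL2 with JunB (29 of 251), 0% for cJun with FOSL2 (0 of 21, upper exact limit 16.1%) and 1.15% for cJun with JunB (5 of 435). Of the 29 FOSL2 with JunB intervals, 20 were in the 4 runs, which were defined by such neighbours. Whether a neighbour was AP-1 only came from the lists the rule used, so these shares and differences are given as a description. FOSL2 with JunB minus cJun with JunB gave 10.4 points (6.69 to 15.0), an interval that treats clustered intervals as independent. This difference was 5.79 points without chromosome 19, and 2.75 points outside the runs (0.370 to 6.15). Besides the runs there were 8 pairs, of which 3 joined FOSL2 with JunB intervals and 1 cJun with JunB intervals. The remaining 778 had no other AP-1 only interval within 10 kb.

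A neighbour could be so close that the 400 bp intervals overlapped. This was so for 32 of the 814 (3.93%), namely 6 with all 3 subunits, 17 with FOSL2 and JunB, 0 with cJun and FOSL2, and 9 with cJun and JunB. At 18 of the 32, an overlapping interval was listed for a factor outside AP-1. When such intervals were left out, 796 remained, and 737 remained when no other factor was allowed within 1000 bp.

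The most isolated intervals of each combination show how far from other sites AP-1 subunits were listed together. For all 3 subunits these were on chromosome 2 from 77500283 to 77500682 (212 kb from the nearest other interval), chromosome 3 from 28422043 to 28422442 (238 kb), chromosome 10 from 51694959 to 51695358 (408 kb) and chromosome 12 from 29515907 to 29516306 (195 kb). In the JunB list they stood at 92.2%, 85.4%, 53.5% and 55.6%. For FOSL2 with JunB they were on chromosome 6 from 69466225 to 69466624 (1246 kb), chromosome 14 from 119866063 to 119866462 (517 kb), chromosome 16 from 63957955 to 63958354 (813 kb) and chromosome 16 from 79571083 to 79571482 (940 kb). The first of these stood at 3.08% of the JunB list, the others at 82.8%, 61.4% and 67.4%. It was the only one in the first 20% of that list among the 12 isolated intervals listed for JunB. Of all 793 AP-1 only intervals listed for JunB, 39 were in that part.

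For cJun with FOSL2 the most isolated intervals were on chromosome 2 from 101330398 to 101330797 (139 kb), chromosome 3 from 41490287 to 41490686 (56.0 kb), chromosome 14 from 46181342 to 46181741 (53.7 kb) and chromosome 17 from 15502642 to 15503041 (57.7 kb). For cJun with JunB they were on chromosome 7 from 113379826 to 113380225 (420 kb), chromosome 12 from 51069053 to 51069452 (1409 kb), chromosome 14 from 13855283 to 13855682 (528 kb) and chromosome 14 from 86653973 to 86654372 (595 kb). In the cJun list the cJun with FOSL2 intervals stood at 98.8%, 64.8%, 69.5% and 85.4%. The cJun with JunB intervals stood there at 60.6%, 77.3%, 93.1% and 86.4%. The lowest of the 8 was 60.6%, and the median of all 563 AP-1 only intervals in the cJun list was 79.5%.

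AP-1 only intervals occurred on all 20 chromosomes. Their share of a chromosome's intervals ranged from 1.62% on chromosome 5 (37 of 2286) to 3.83% on chromosome 14 (43 of 1124), with a median of 2.41%. On chromosome 19, second with 3.15%, 13 of 49 were in runs, and FOSL2 with JunB (22) outnumbered cJun with JunB (16). Chromosome 11 was the other chromosome where it did so, with 15 and 14. On chromosome X there were 3 FOSL2 with JunB intervals, 9 cJun with JunB intervals and 0 of the other combinations.

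**Figure D5:**
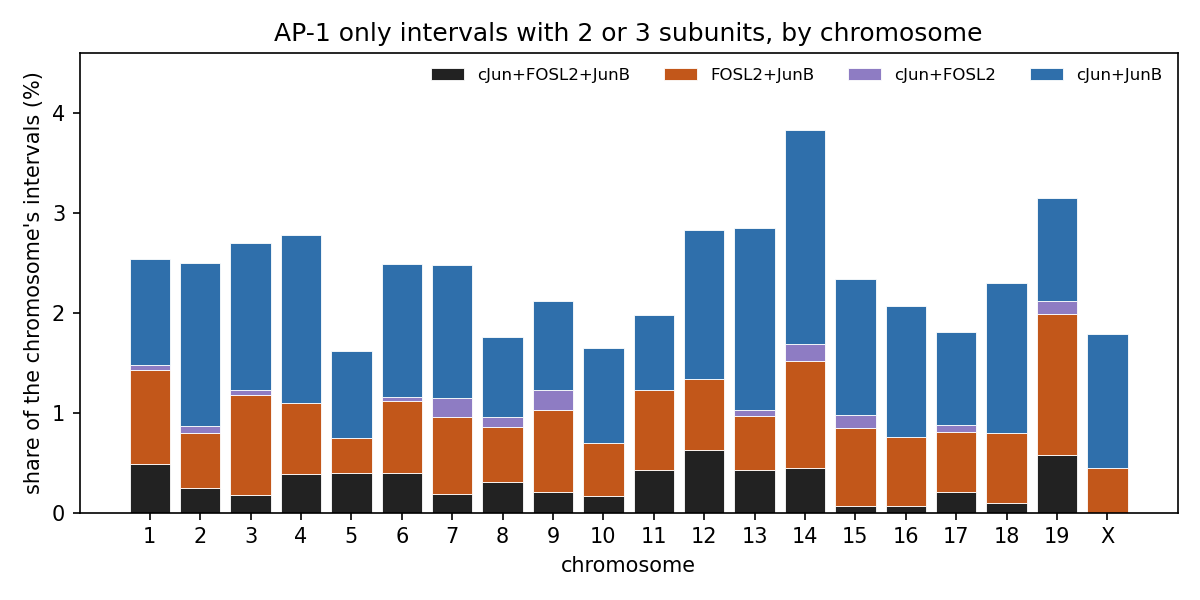
AP-1 only intervals with 2 or 3 subunits as a share of all listed intervals on each chromosome (vertical axis, percent; chromosomes on the horizontal axis), divided by subunit combination. Bars run from 1.62% on chromosome 5 to 3.83% on chromosome 14, and chromosome 19 has 22 FOSL2+JunB intervals.

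Chromosome 10 holds blocks where listed intervals are dense. Windows of 1 Mb with at least 10 times the median of 14 intervals were found only there, starting at 107000001, 116000001 and 117000001, and held 867 intervals. Of the AP-1 only intervals, 4 lay in them (0.491%, 0.134 to 1.25), against 2.54% of all other intervals. The 4 were 1 with all 3 subunits, 2 with FOSL2 and JunB and 1 with cJun and JunB. AP-1 only intervals were thus less frequent in the blocks than elsewhere, at 0.461% of block intervals.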

How the data were processed

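For 9 ChIP-seq libraries of 3T3-L1 cells at 4 h, the authors deposited lists of intervals with 3 columns (chromosome, start, end) and no other value. FastQC, Bowtie, HOMER and mm9 are named in the submitters' processing notes; no source used here states their roles, versions or the threshold for listing. The other 21 labelled samples were not analysed here. Depth is unknown.

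Every interval was 400 bp wide. Those on the autosomes and chromosome X entered (34724 of 34726), matched by identical coordinates, and given 1-based in mm9. Neighbours were counted between midpoints, which were at least 201 bp apart. Shares carry exact Clopper-Pearson 95% intervals, differences of shares Newcombe 95% intervals and medians exact order-statistic intervals. No p-value was computed, since each factor had 1 library. The functions recovered planted intervals, neighbours and runs when tested on simulated data.

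The members and the comparisons were chosen with earlier results of these data known. Use of the deposited order and of runs was added after seeing the files. Named regions were the 4 most isolated per combination, leaving out chromosome 18, and all runs; others are marked as chosen after their values were seen. Planned comparisons with promoters and motifs were not run, since they need an mm9 genome and annotation, which were not used here. Python 3.11.15, numpy 2.4.6, pandas 2.3.3, scipy 1.17.1, statsmodels 0.14.6 and matplotlib 3.10.9 were used.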

Additional observations from a re-analysis of the deposited data

How the results depend on the processing

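Over 45 results and 533 alternatives, no difference whose interval excluded 0 changed sign. The number of AP-1 only intervals lay between 737 and 1050 across the alternatives to the rule. The count with all 3 subunits rose to 175 when ATF2 was allowed. Distance set the shares with a neighbour: another listed interval lay within 5 kb of 32.4% and within 50 kb of 84.0%, a hotspot within 5 kb of 7.25% and within 50 kb of 38.7%, and another AP-1 only interval within 50 kb of 10.3%. The difference between FOSL2 with JunB and cJun with JunB for an ATF2 neighbour was 4.58 points at 5 kb and 12.1 points at 50 kb. Without the runs, another AP-1 only interval was within 10 kb of 2.02%. With the runs kept, that share was 4.42%, and it ranged from 3.01% (without chromosome 19) to 4.67% when each chromosome was left out in turn. The share in dense blocks ranged in the same way from 0% (without chromosome 10) to 0.539%. With dense blocks at 5 times the median the share in them was 1.84%, against 3.87% of all intervals. At 20 times the median it was 0.369%, against 1.91% of all intervals. Alternatives with promoters and motifs were not run, for want of an mm9 genome. A stricter peak threshold could not be set, since the lists hold no score. No paired analysis was possible because each factor had 1 library. Whether unlisted factors were missed for lack of depth was not tested.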
